A study of Mus musculus with 2 samples.

Results

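The transcripts of the 5 NF-kappaB subunits (Nfkb1, Rela, Rel, Nfkb2 and Relb) and of 5 induced regulators of the pathway (Nfkbia, Nfkbiz, Bcl3, Tnfaip3 and Birc3) were examined in whole omentum. They were taken by gene symbol, and all 10 were present among the 24346 symbols listed. The omentum is a fold of abdominal fat dotted with milky spots, which are lymphoid clusters of leukocytes and stroma. RNA-seq was performed on 2 libraries, 1 per genotype, each 5 days after an injection of diphtheria toxin (DT). The WT library came from mice without the toxin receptor. The DTR library came from Postn-DTR mice, heterozygotes in which a receptor cassette sits in the first coding exon of Postn, so that any cell using the Postn promoter can be killed by the same toxin that the WT mice also received. Postn is also used by mesenchymal cells of other organs, so effects from outside the omentum are possible in this model. Whether a library was 1 mouse or a pool was not given. The question behind the comparison was how loss of the Aldh1a2+ fibroblastic reticular cells (FRCs) targeted through Postn alters omental gene expression.

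NF-kappaB proteins are transcription factors that work as pairs. In the classical arm, signals such as TNF, interleukin-1 or Toll-like receptor ligands lead to destruction of the inhibitor encoded by Nfkbia, which frees dimers containing the products of Rela, Rel and Nfkb1. In the alternative arm, lymphotoxin, BAFF or CD40 stabilises the kinase encoded by Map3k14, the Nfkb2 precursor is cut, and its product pairs with that of Relb. This second arm is known for the stromal and vascular programme of lymphoid organs. Nfkbia, Tnfaip3, Birc3, Nfkb2 and Relb are themselves textbook targets of the pathway, and Nfkbia and Tnfaip3 are classic examples of feedback.

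Sequences around the gene starts were drawn from RefSeq windows on GRCm38.p6, each reaching from 250 bases before to 50 bases after an annotated start. The kappaB consensus, a motif of 10 bases, was searched on both strands. Windows were found for 7 of the 10 genes, the others being Nfkb1, Relb and Nfkbiz. Of the 7 genes, 5 had at least 1 match (Nfkb2, Rel, Nfkbia, Tnfaip3 and Bcl3), whereas Rela and Birc3 had none. Over all windows 4.51% held a match, and over all gene symbols with a window 5.14% did. A match is a run of letters, and says nothing of whether a factor was bound. The stretches below are shown because they carry the matches of 3 regulators, of the subunit Rel and of Nfkb2, the gene with the lowest change, beside a gene with no match. Each is written 5′ to 3′ on the gene's strand, with the matched bases in capitals, and adjoining matches are drawn as 1 run.

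Nfkbia upstream stretch: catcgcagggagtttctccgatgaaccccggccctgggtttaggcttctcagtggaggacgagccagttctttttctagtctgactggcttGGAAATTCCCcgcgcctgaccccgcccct
Bcl3 match: tcggcggcagGGGAAGTCCCgctgcccggc
Tnfaip3 match nearest the start: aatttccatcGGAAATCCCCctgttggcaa
Rel match: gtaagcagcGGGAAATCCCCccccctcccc
Nfkb2 first window, outer match: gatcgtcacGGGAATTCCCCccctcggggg
Nfkb2 first window, inner match: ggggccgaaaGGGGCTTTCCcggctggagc
Nfkb2 match shared by the other windows: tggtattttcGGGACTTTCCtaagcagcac
Birc3 upstream stretch, without a match: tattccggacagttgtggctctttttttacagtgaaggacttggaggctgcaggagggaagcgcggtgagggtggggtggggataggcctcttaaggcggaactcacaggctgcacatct

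The Nfkbia stretch of 120 bases lies on the minus strand at chr12:55492648-55492767 and ends at the base before the annotated start, with its match beginning 29 bases upstream of that start. The Bcl3 stretch is at chr7:19822734-19822763 on the minus strand, and its match begins 2 bases after the start. The Tnfaip3 stretch is at chr10:19015403-19015432 on the minus strand, with a match that begins 12 bases upstream, and a second match of this gene begins 125 bases upstream. The Rel stretch is at chr11:23771041-23771070 on the minus strand, with matches beginning 92 bases upstream. In Nfkb2 the outer and inner matches of the first window, at chr19:46304689-46304718 and chr19:46304716-46304745 on the plus strand, begin 39 and 11 bases upstream. The shared Nfkb2 match is at chr19:46305695-46305724. A further Nfkb2 match, not shown, lies at chr19:46305449-46305478 and begins 236 bases upstream of the start of the second window. The Birc3 stretch of 120 bases is on the minus strand at chr9:7873187-7873306.

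With 1 library per genotype no spread between samples was available, so no test was run and the differences could not be checked against replicates. Values are FPKM, that is fragments scaled to transcript length and to mapped fragments, which allows levels to be set beside each other between genes. A change is the log2(FPKM + 1) of Postn-DTR minus that of WT. A gene was counted as higher or lower when this change reached 2-fold, among the 13127 genes whose mean FPKM over both libraries was 1 or more. All 10 genes passed this minimum in each library, but other genes could reach it through 1 library alone. The median change of all genes compared was 0.02, and their quartiles were -0.24 and 0.28. The total FPKM was 542190 for WT and 671882 for Postn-DTR. Depth estimated from the steps between low values was about 23400000 and 24200000 fragments, so that an FPKM of 1 stood for about 23.4 and 24.2 reads per kilobase. Postn itself was at 58.3 in WT and 16.2 in the library labelled Postn-DTR.

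Regulators and subunits differed in how far they stood from WT. Nfkbia, Nfkbiz and Bcl3, the 3 genes encoding proteins of the IkappaB type, were each at least 2-fold higher in Postn-DTR. None of the 5 subunits reached 2-fold in either direction. Of the 10 genes, 3 were thus at least 2-fold higher, where 3.88% of all genes compared were, and 0 were at least 2-fold lower, where 3.12% of all genes were. Higher genes made up 55.4% of all genes past 2-fold, but 27.9% once pancreatic acinar genes were removed and both totals made equal. This scaling moved the median of all genes by -0.30 and left Nfkbia and Nfkbiz past 2-fold. Its steps were not run apart, and acinar genes held only 12486 of the WT total FPKM of 542190. The median change of the 10 genes was 0.43, and 0.093 at equal totals. It was 1.03 over the 5 regulators and -0.05 over the 5 subunits, and at equal totals 0.69 and -0.38. In whole tissue, more cells of a type and more RNA per cell cannot be told apart, and macrophage and neutrophil markers were also higher in Postn-DTR, with values given after the pathway lists.

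**Figure D1:**
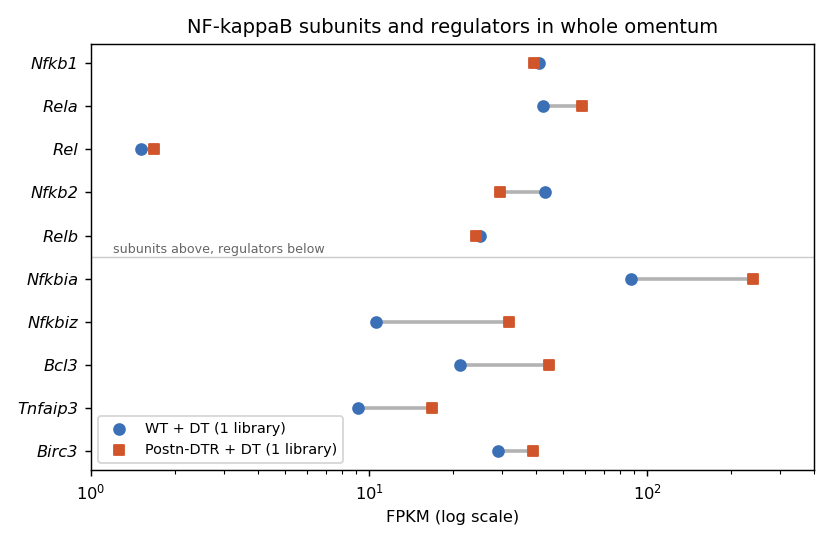
FPKM (log axis) of the 5 subunits and the 5 regulators in the WT library (circles) and the Postn-DTR library (squares), 1 library each and both after DT, with a grey line joining the values of a gene. The 5 regulators all lie further right in Postn-DTR, with Nfkbia at 87.6 and 240.0, while Nfkb1, Rel and Relb nearly coincide.

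Among the regulators, Nfkbia (ENSMUSG00000021025, chromosome 12, 55489410 to 55492647 on the minus strand, GRCm38) encodes the inhibitor that holds classical dimers in the cytoplasm. Its level was an FPKM of 87.6 in the WT library and 240.0 in the Postn-DTR library, which was 2.74-fold higher, with a change of 1.44. This was the most abundant of the 10 transcripts in both libraries, above 93.0% of the genes compared in WT and above 97.2% in Postn-DTR. Of all genes compared, 1.87% had a change as high. In FPKM, Nfkbia accounted for 152.5 of the difference, more than the level of any other of the 10 genes in either library.

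Nfkbiz (ENSMUSG00000035356, chromosome 16, 55811375 to 55838899 on the minus strand) encodes a nuclear protein of the same family that acts as a co-activator of selected inflammatory genes. It went from an FPKM of 10.6 to 32.0, the highest fold of the group at 3.02, with a change of 1.51. In WT it stood near the middle of all genes, above 47.3% of them, and in Postn-DTR above 77.2%. Relative to Nfkbia its level hardly moved, with a ratio of 0.121 in WT and 0.133 in Postn-DTR. Both transcripts were therefore higher to a similar degree.

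Bcl3 (ENSMUSG00000053175, chromosome 7, 19808462 to 19822770 on the minus strand), whose nuclear product binds homodimers of the processed Nfkb1 and Nfkb2 proteins, was measured at 21.2 in WT against 44.3 in Postn-DTR. This was 2.08-fold higher, with a change of 1.03, so Bcl3 lay just past the 2-fold line. It fell back within 2-fold with a pseudocount of 5 and under 2 of 3 other scalings of the libraries, with a lowest change of 0.69. Set against its partner, Bcl3 stood at 0.496 of the Nfkb2 level in WT and at 1.49 times that level in Postn-DTR, so the order of these transcripts turned. A ratio within a library does not depend on how the libraries are scaled to each other.

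The regulators that act on ubiquitin chains stayed within 2-fold. Tnfaip3 (ENSMUSG00000019850, chromosome 10, 19000910 to 19015657 on the minus strand) encodes the ubiquitin-editing enzyme that shuts off signalling from TNF and Toll-like receptors. It was measured at 9.13 in WT against 16.8 in Postn-DTR, a ratio of 1.84 and a change of 0.82, and was the gene nearest below the line. With a threshold of 1.5-fold it would join the others, making 4 of 10 higher and 0 lower, where 9.86% of all genes were higher and 8.84% lower at that threshold. Birc3 (ENSMUSG00000032000, chromosome 9, 7848699 to 7873186 on the minus strand), a ubiquitin ligase that restrains the alternative-arm kinase and supports TNF receptor signalling, was at 29.1 and 38.7, with a change of 0.40. Its neighbour and paralog Birc2 was at 26.3 and 36.9, and the ratio of Birc3 to Birc2 was 1.11 in WT and 1.05 in Postn-DTR.

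Among the subunits of the classical arm, Rela (ENSMUSG00000024927, chromosome 19, 5637483 to 5648130 on the plus strand), which carries the main activation domain, was at 42.3 in WT against 58.5 in Postn-DTR. Its change of 0.46 was the largest upward value of the subunits, and 14.3% of all genes compared had a change as high. At equal totals it was 0.12. Nfkb1 (ENSMUSG00000028163, chromosome 3, 135584655 to 135691547 on the minus strand), the precursor of the usual partner of Rela, was at 40.9 and 39.3, with a change of -0.06. Rel (ENSMUSG00000020275, chromosome 11, 23736847 to 23770970 on the minus strand), a subunit best known from lymphocytes, was the least abundant of the 10 genes, at 1.51 and 1.69. Its change of 0.10 turned to -0.11 at these equal totals, and the 95% counting interval of its ratio, from 0.945 to 1.32, includes no difference. So do those of Nfkb1, from 0.917 to 1.004, and of the alternative-arm subunit Relb, from 0.905 to 1.03. Intervals of this kind use approximate reads and cover counting error only.

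In the alternative arm, Nfkb2 (ENSMUSG00000025225, chromosome 19, 46304320 to 46312385 on the plus strand), the precursor that is processed on lymphotoxin or BAFF signals, was at 42.8 in WT against 29.6 in Postn-DTR. Its change of -0.52 was the lowest of the 10 genes, a ratio of WT to Postn-DTR of 1.45, and 10.8% of all genes compared had a change as low. It stayed negative under the 7 alternatives tried for it, between -0.85 and -0.47. Relb (ENSMUSG00000002983, chromosome 7, 19606217 to 19629438 on the minus strand), the partner of processed Nfkb2, was at 25.1 and 24.2, with a change of -0.05. In these annotations Relb and Bcl3 lie close together on chromosome 7. The end of Nfkb2 overlaps Psd on the opposite strand, which was nearly level at 4.32 and 4.36.

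**Figure D2:**
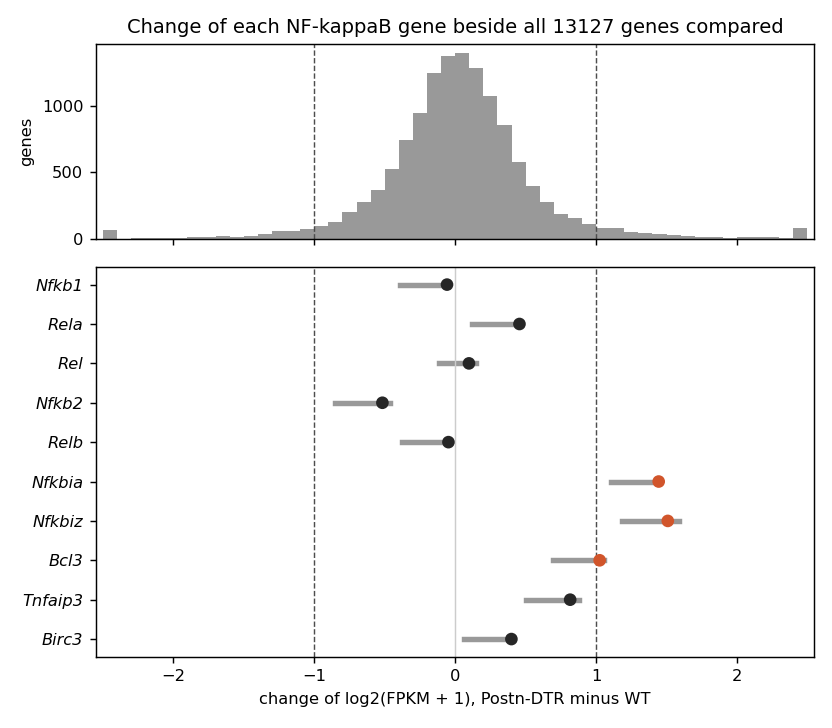
Upper panel, number of genes by change in log2(FPKM + 1) from WT to Postn-DTR, over the 13127 genes compared, with more extreme values gathered in the outer bins. Lower panel, the change of each of the 10 genes (points in orange where at least 2-fold) with the range over the alternative pseudocounts, filters and scalings (grey bars), where dashed lines mark 2-fold and the bars of Nfkbia and Nfkbiz remain above it, down to 1.10 and 1.19.

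The summed FPKM of the 5 subunits as deposited was almost equal, at 152.6 in WT and 153.3 in Postn-DTR, but their make-up shifted. Rela made up 27.7% of the subunit FPKM in WT and 38.2% in Postn-DTR, a gain of 10.4 percentage points. Nfkb2 made up 28.0% and 19.3%. In WT the transcripts of Nfkb1, Rela and Nfkb2 were thus nearly level, whereas in Postn-DTR Rela stood at 1.49 times the Nfkb1 level and Nfkb2 at 0.754 of it. Nfkb2 and Relb together held 44.5% in WT and 35.1% in Postn-DTR. Over the same libraries the summed FPKM of the 5 regulators was 157.6 and 371.8, so that the ratio of regulator to subunit transcripts went from 1.03 to 2.43. Nfkbia alone was at 2.07 times the Rela level in WT and 4.11 times in Postn-DTR. These are transcript levels, and precursor cleavage and inhibitor turnover are not seen in them.

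**Figure D3:**
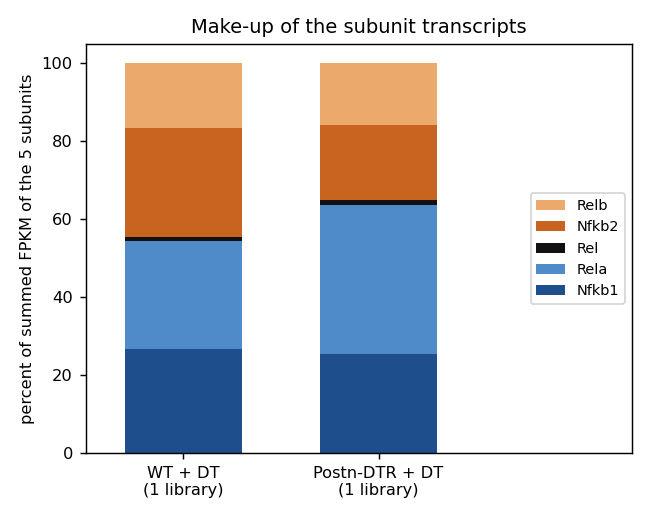
Share of the summed FPKM of the 5 subunits (percent) held by each transcript in the WT and the Postn-DTR library, 1 library per bar. The classical-arm transcripts Nfkb1, Rela and Rel (blue and black) make up 55.5% in WT and 64.9% in Postn-DTR, and the gain is in Rela.

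The rest of the pathway was read from lists. Among 10 other inhibitors and deubiquitinases, 9 were compared, 1 was at least 2-fold higher and 0 were lower. The higher one was Zc3h12a, an RNase that destroys inflammatory mRNAs, at 9.12 in WT and 28.9 in Postn-DTR. Tnip1, which works with the product of Tnfaip3, was the most abundant of the list, at 30.3 and 42.4. Of the inhibitors of the same cytoplasmic type, Nfkbib was at 23.9 and 35.8, and Nfkbie at 21.4 and 12.7, both named after their values were seen. Nfkbie stayed within 2-fold, but was lower by that measure at equal totals, with a change of -1.03. The ratio of Nfkbia to Nfkbie was 4.09 in WT and 18.9 in Postn-DTR. Nfkbie also holds a kappaB match, shown for comparison with that of Nfkbia.

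Nfkbie match: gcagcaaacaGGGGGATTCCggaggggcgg

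This stretch lies at chr17:45555584-45555613 on the plus strand, with the match beginning 106 bases upstream of the annotated start. A match was thus present both upstream of Nfkbia, which was higher, and upstream of Nfkbie and Nfkb2, which had negative changes. Over all genes compared that had a window, 6.10% of the 639 with a match and 3.59% of the 9314 without one were at least 2-fold higher, while 2.66% and 2.87% were at least 2-fold lower. Windows with a match may differ from the others in base composition, which was not compared.

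The kinases and adaptors of both arms stayed close to WT. Of 28 genes compared, 27 stayed within 2-fold and 1 was lower (3 at equal totals), with a median change of 0.04 that became -0.03 with libraries scaled to the same 75th percentile and -0.28 at equal totals. The lower gene was Traf1, an adaptor of TNF receptors, at 18.8 in WT and 7.29 in Postn-DTR. Myd88, the adaptor of Toll-like and interleukin-1 receptors, had the highest mean of both libraries, at 43.5 and 67.7. All 9 receptors stayed within 2-fold, and the most abundant, Tnfrsf1a, the main TNF receptor, was at 139.8 and 174.2.

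The ligands were split. Of 9 listed, 7 were compared. Lta and Ltb, the lymphotoxin subunits made by lymphocytes, were lower, with Lta at 5.74 and 1.72 and Ltb at 69.3 and 23.6. Il1a and Il1b, the interleukin-1 cytokines that trigger the classical arm, were higher, with Il1a at 0.412 and 3.21 and Il1b at 1.87 and 8.19. Il1a reached the minimum mean only through Postn-DTR. Cd40lg, at 1.23 and 0.317 and named after its values were seen, did not reach it. The 3 other ligands compared stayed within 2-fold, among them Tnf at 3.76 and 2.26, named after its values were seen. The 4 ligands past the line thus lay on both sides of WT, the lymphotoxins below it and the interleukins above it.

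Reported target genes of the arms also lay apart, in lists that were chosen with earlier results of these data known. Of 20 classical-arm targets, 17 were compared, 10 were at least 2-fold higher, where 3.88% of all genes were, and 0 were lower, with a median change of 1.10. Pathway targets placed in other lists are not in this count, among them Nfkbia and Nfkb2, with changes of 1.44 and -0.52. The number higher was 9 when centred or scaled to the same 75th percentile, and 7 at equal totals, with a median of 0.77. The serum amyloid gene Saa3 and the siderophore-binding gene Lcn2 had the largest changes, 6.43 and 5.62. The neutrophil chemokine genes were also higher, with Cxcl1 at 1.78 and 34.9 and Cxcl2 at 0.731 and 12.1. The stress-induced gene Ier3 was at 21.2 and 178.0, and the cytokine gene Il6 at 0.436 and 5.58. Cxcl2 and Il6 were below an FPKM of 1 in WT and reached the minimum mean only through Postn-DTR. Ccl2, Ccl5, Sod2 and Bcl2a1b were higher by 1.01 to 1.44 on the log2 scale, although Ccl5 was under 2-fold in all 3 other scalings, and Sod2 and Bcl2a1b at equal totals. Bcl2a1b has near-identical copies and its value is uncertain. The endothelial adhesion genes Icam1 and Vcam1 stayed within 2-fold, at 37.2 and 47.3 for Icam1 and at 30.3 and 31.9 for Vcam1, both named after their values were seen. Many of these targets also answer to other pathways.

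Of 6 alternative-arm targets, 0 were higher and 2 were lower, where 3.12% of all genes were, with a median change of -0.24. The lower ones were the homeostatic chemokine genes Ccl19 and Cxcl12, with changes of -1.73 and -1.36. By quantitative PCR on omenta of several mice, the paper reports Cxcl12 as lower but Ccl19 as comparable between the genotypes. The Ccl19 value here rests on 1 library per genotype. The paper also reports Cxcl12 mRNA in the targeted FRCs themselves, in other FRCs and in endothelial cells. In sorted endothelial cells it was raised by retinoic acid, the product of the Aldh1a2 pathway. Whether the lower Cxcl12 here involved the alternative arm was not tested. Cxcl13, the B cell chemokine and the most abundant of the list, had a change of -0.14. No difference between the lists was tested.

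**Figure D4:**
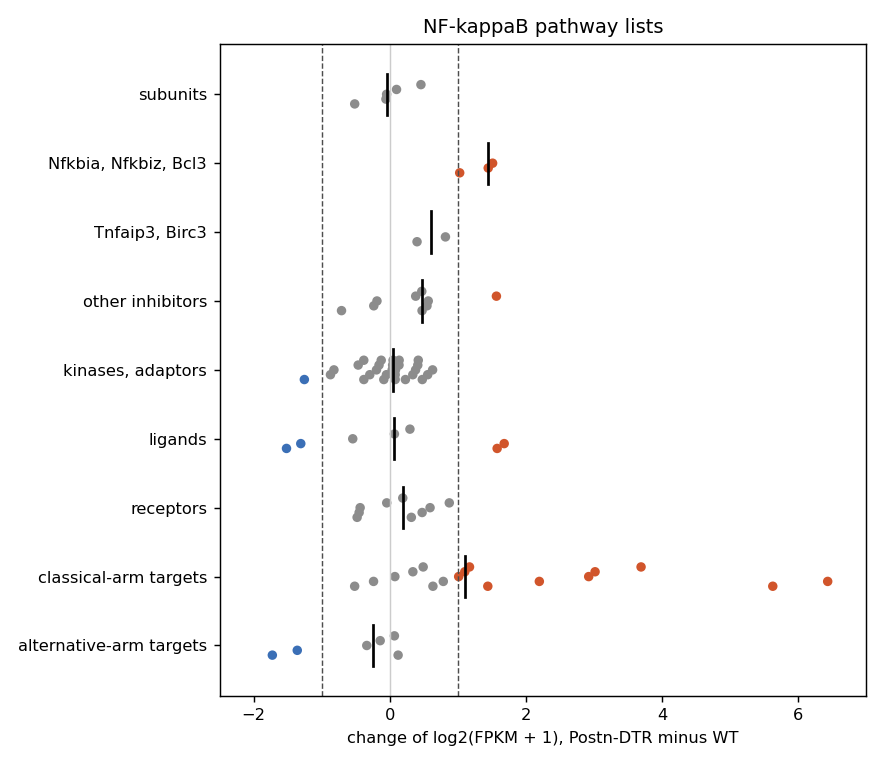
Change in log2(FPKM + 1) from WT to Postn-DTR of each compared gene in 9 lists of the NF-kappaB pathway, with a black bar at the median of a list and dashed lines at 2-fold (orange at least 2-fold higher, blue at least 2-fold lower). The points of the subunits, receptors and most kinases lie between the dashed lines, while 10 of 17 classical-arm targets lie to the right of them and none to the left. The lists were chosen with earlier results of these data known.

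Markers of leukocytes and stroma were read in the same libraries, since whole tissue holds many cell types. All 8 macrophage markers had positive changes and 4 were at least 2-fold higher, and their summed FPKM was 2932 in WT against 4885 in Postn-DTR. The markers with the highest means of both libraries, Lyz2 and Cd68, were at 2459 and 3563 and at 113.8 and 369.4. All 6 neutrophil markers present had positive changes and 4 were at least 2-fold higher, with a sum of 347.7 and 687.3, led by S100a8 at 169.7 and 338.6 and S100a9 at 156.6 and 249.3. Monocyte markers were mixed, with 2 of 4 higher, 1 lower and a sum of 202.8 and 470.6. F13a1, at 100.2 and 133.9, and Ly6c2, at 50.9 and 150.3, had the highest means of both libraries. None of these markers was at 0.

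The lymphoid lists were on the other side. Of 7 T cell markers 5 were at least 2-fold lower and the sum was 86.8 in WT and 37.4 in Postn-DTR, with Lck at 20.3 and 8.37 and Cd3g at 18.7 and 10.5. Of 7 B cell markers 3 were lower and the sum was 486.6 and 332.5, with Cd79a at 190.9 and 169.6 and Cd79b at 136.7 and 96.0. The lower ones were Fcer2a at 30.5 and 3.10, Cr2 at 5.25 and 0.573 and Ms4a1 at 56.8 and 23.6. They were named after their values were seen. Of 5 dendritic cell markers 4 were lower and the sum was 39.4 and 16.1, with Cd209a at 15.8 and 6.05 and Ccr7 at 8.45 and 3.18. For comparison, the summed regulators were 2.36-fold higher, the macrophage markers 1.67-fold, the neutrophil markers 1.98-fold and the monocyte markers 2.32-fold. Nfkbia made up most of the regulator sum, with 87.6 of 157.6 in WT and 240.0 of 371.8 in Postn-DTR. Lyz2 made up most of the macrophage sum, and Cd14, Itgam, Adgre1 and Cd68 were higher by 6.84, 5.38, 3.35 and 3.25-fold. Csf1r, Mrc1 and Timd4 were higher by only 1.38, 1.48 and 1.32-fold. At equal totals their changes were 0.13, 0.22 and 0.06, while 4 macrophage markers stayed at least 2-fold higher. The monocyte sum joined Chil3, at 12.1 and 170.0, with Ccr2, at 39.6 and 16.4. The median change was 1.12 for macrophage, 1.42 for neutrophil and 0.98 for monocyte markers. The part of cell content in the NF-kappaB values was not tested.

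Stromal, vascular and fat markers moved less or apart. Endothelial markers stayed within 2-fold in 4 of 4 (3 of 4 at equal totals, where Kdr was lower by 2-fold), with a sum of 186.8 and 173.1, Pecam1 at 109.0 and 109.5 and Cdh5 at 46.5 and 42.4. Of 5 fibroblast markers 2 were lower, Dpt and Ccl19, and Ccl19 was also counted among the alternative-arm targets. The sum of the 5 was 395.0 and 189.2, with Dpt at 236.9 and 67.3 and Pdpn at 46.6 and 57.1. Of 4 mesothelial markers 1 was lower, with a sum of 363.5 and 342.1, Upk3b at 211.6 and 181.9 and Wt1 at 52.1 and 63.2. Of 6 adipocyte markers 1 was lower, with a sum of 6750 and 7984, Fabp4 at 4879 and 6519 and Adipoq at 955.2 and 635.9. The defining adipocyte and mesothelial markers of omentum were thus present in both libraries. Pancreatic acinar genes were far more abundant in WT, with a sum of 12486 in WT and 21.6 in Postn-DTR over 29 genes, led by Ctrb1 at 2490 and 1.51 and Cela2a at 1628 and 0.351, and with Amy2a5 at 0 in both. The pancreas adjoins the omentum, and whether the WT library held some pancreatic tissue, and its part in the values above, was not tested.

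**Figure D5:**
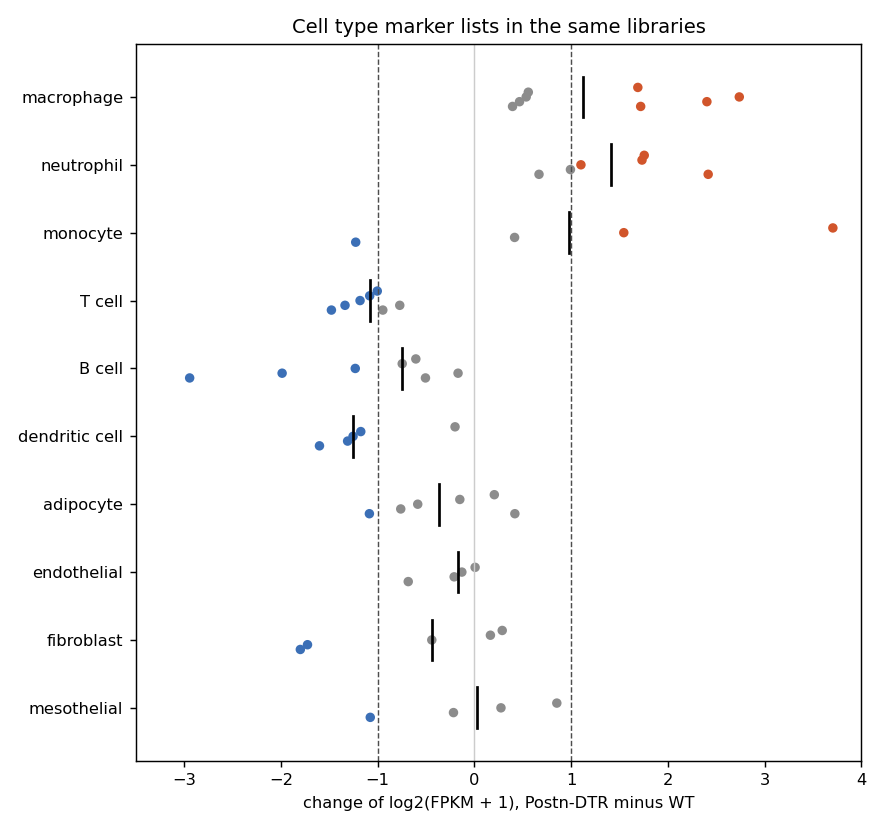
Change in log2(FPKM + 1) from WT to Postn-DTR of each compared marker gene of 10 cell types in the same libraries, with a black bar at the median of a list, dashed lines at 2-fold, orange points at least 2-fold higher and blue points at least 2-fold lower. All 8 macrophage and 6 neutrophil markers lie to the right of 0, and all T cell, B cell and dendritic cell markers to the left.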

How the data were processed

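Stranded TruSeq mRNA libraries were prepared from miRNeasy-extracted total RNA, per the labels. The submitters' processing notes name TopHat2 2.1.1, Bowtie2 2.2.8, SAMtools 0.1.18, Cuffdiff 2.2.1 and build mm10. Their options and annotation are not given in the sources used here. The authors deposited FPKM, 1 value per gene symbol and library. FPKM are relative values, so a few very abundant transcripts can lower all others, depending on how the libraries were scaled. That scaling is not given in these sources either. Positions come from GENCODE M21 on GRCm38, which held 23310 of the 24346 symbols.

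Groups came from the genotype label. Values were compared in Python 3.11.15 as the change of log2(FPKM + 1), over genes whose mean FPKM was 1 or more, and no test was run. A pseudocount understates changes of genes with low FPKM. Among low genes with 1 transcript, 80.4% of WT values and 79.2% of Postn-DTR values were within 0.1 of 1 to 3 whole reads at the estimated depth. That depth was chosen to maximise the WT share, so it is approximate. Steps were tested on simulated data. The genes and lists were chosen with earlier results of these data known. Named were the 10 genes, list genes at least 2-fold changed, the gene with the highest mean FPKM of each list, the 2 such markers of each cell type and any at 0, and Postn. Ly6g and Trac were not analysed here. Alternatives were 2 pseudocounts, 2 filters, 3 scalings and 2 thresholds.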

Additional observations from a re-analysis of the deposited data

How the results depend on the processing

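No paired analysis was possible because each genotype had 1 library, and for the same reason no library could be left out. The number of the 10 genes at least 2-fold higher was 3, and stayed at 2 to 4 under all alternatives except a threshold of 3-fold, where it was 0 (of all genes, 1.52% were higher). A higher threshold lowers a count by construction. Nfkbia and Nfkbiz were past 2-fold in each of the 8 other settings. Bcl3 was lost with a pseudocount of 5, at the same 75th percentile and at equal totals without acinar genes. The number lower was 0 throughout. The median change of 0.43 became 0.093 at equal totals, which moved the median of all genes by -0.30 and the share of higher among changed genes from 55.4% to 27.9%. Of 69 values of single genes under an alternative, 15 moved by more than their counting interval and 0 called values changed sign. Rel, at about 257 reads in WT, failed the filter of a mean FPKM of at least 10.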
